A study of Arabidopsis thaliana with 6 samples.

Results

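Arabidopsis thaliana seedlings, 10 days old, of a histone H3.3 mutant were compared with wild type for the transcripts of 10 zinc finger genes, namely ZAT5, ZAT6, ZAT7, ZAT10, ZAT11, ZAT12, ZAT18, AZF1, AZF2 and AZF3. The 10 genes were picked out by identifier from the 27655 genes of the deposited table, as a named family whose levels in this same comparison were already known to be low in the mutant. Their differences between the genotypes are therefore given as a description, with no test. In the 3 h3.3ko;HTR5 libraries, 9 of the 10 genes were below all 3 wild type libraries, as were 20.4% of all 19013 genes tested. ZAT12 was 4.96-fold lower, ZAT7 3.8-fold, ZAT10 3.14-fold, ZAT6 2.86-fold and ZAT11 2.45-fold, whereas AZF3, AZF2, AZF1 and ZAT5 were lower by 1.16-fold to 1.62-fold. ZAT18 was near its detection limit in both genotypes.

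ZAT and AZF proteins are small plant transcription factors with a pair of C2H2 zinc fingers, each carrying the QALGGH motif that contacts DNA. Most of them also carry an EAR motif near the C-terminus, a short repression motif through which they recruit co-repressors and lower the activity of their target promoters. Many of their genes have little transcript in undisturbed plants and are switched on within minutes to hours by cold, salt, drought, strong light, wounding or reactive oxygen species. The transcripts then decline again, so a level in unstressed seedlings is a basal level.

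Total RNA was taken from seedlings raised at 22 °C under long days (16 h light, 8 h dark) and harvested at an age of 10 days. The wild type was the Col accession, with 3 libraries, and the other genotype, named h3.3ko;HTR5 in the labels, also had 3. Its name refers to a knockout of H3.3, the histone variant deposited outside replication, and to HTR5, a gene encoding H3.3. The labels do not spell out its mutant alleles, the promoter that drives HTR5, or the number of independent lines. The stated aim was to follow transcriptome changes in this genotype. No stress treatment is named in the labels. Nothing in the labels says that replicates are separate cultures. The p-values thus reflect only the spread among these libraries, which may be technical.

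Levels are in TPM, the reads of a gene divided by its length and scaled to the same total in every library. The values correspond to 13792031 to 14498093 whole reads per library. Of the genes encoding H3.3, HTR8 had 314.9, 323.5 and 289.1 TPM in the wild type libraries, against 3.19, 5.2 and 5.03 TPM in the mutant ones. HTR4 was at 308.9 to 330.6 TPM against 148.3 to 154.5 TPM, and HTR5 at 403.3 to 423.0 TPM against 289.7 to 298.3 TPM. All 6 leaf and all 7 root markers examined reached a mean of 1 TPM, none of the 4 flower markers did, and none of these was at 0 in every library. Summed leaf markers ranged from 30200 to 32300 TPM in wild type and from 34100 to 35600 TPM in h3.3ko;HTR5. Summed root markers ranged from 2050 to 2080 TPM and from 1830 to 2010 TPM. By limma, CAB3 and CA1 of the leaf markers rose and GL1 fell, and no root marker passed. The seed storage gene CRA1 was at 0.65 ± 0.24 and 3.08 ± 1.74 TPM (SD, n = 3 each; limma adjusted p = 0.0292), a call that held only without h3.3ko;HTR5 replicate 2 when single libraries were left out. The part of these shifts in the differences described here was not tested. In RNA from seedlings, fewer cells of a type and less RNA per cell cannot be told apart.

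ZAT10 and ZAT12 were the most abundant of the genes that were lowest relative to wild type. ZAT10 (AT1G27730), also named STZ for salt tolerance zinc finger, is a repressor induced by salt, cold and strong light. It lies at chr1:9648021-9649323 on the minus strand of the TAIR10.1 assembly, in a single exon. From replicate 1 to replicate 3, ZAT10 was at 139.8, 83.16 and 64.62 TPM in wild type, against 36.55, 24.54 and 30.4 TPM in the mutant (values of 3 libraries are given in this order throughout). Every mutant library was below every wild type library, and wild type replicate 1 stood highest. The group means were 95.85 ± 39.15 and 30.5 ± 6.0 TPM (SD, n = 3 each), so that 31.8% of the wild type level was left, a log2 fold change of -1.56. Log2 fold changes here are the difference of the mean log2(TPM + 1), mutant minus wild type, and the added 1 makes the change of low genes look smaller.

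ZAT12 (AT5G59820), also named RHL41, is known for its part in the responses to reactive oxygen, strong light and cold. It is the shortest of the encoded proteins, with 162 residues, and the single-exon gene lies at chr5:24102814-24103794 on the plus strand. Its levels were 81.48, 49.09 and 34.69 TPM in wild type and 16.45, 9.58 and 7.27 TPM in h3.3ko;HTR5. The groups did not overlap, and replicate 1 was the highest library in both. The means were 55.09 ± 23.96 and 11.1 ± 4.77 TPM (SD, n = 3 each), which left 20.1% of the wild type level. With a log2 fold change of -2.20 this was the lowest of the 10 genes.

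ZAT6 (AT5G04340), reported to act in phosphate homeostasis, root development and cadmium tolerance, lies at chr5:1216058-1217362 on the minus strand. It was at 24.41, 17.12 and 14.69 TPM in wild type, against 8.56, 6.85 and 4.25 TPM in the mutant. Again replicate 1 was the highest in each genotype and the groups were apart. Its mean was 35.0% of that of wild type, with a log2 fold change of -1.40.

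ZAT7 and ZAT11 had the same kind of difference at much lower levels. ZAT7 (AT3G46090), whose overexpression raises salt tolerance through its EAR motif, lies at chr3:16925881-16926883 on the minus strand. It was at 6.32, 3.63 and 3.03 TPM in wild type, against 1.7, 0.6 and 1.11 TPM in the mutant. These values stand for 41, 23 and 19 reads against 11, 4 and 7 reads, so each mutant value carries a large counting error. The groups were still apart, and the mutant mean was 26.3% of that of wild type.

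ZAT11 (AT2G37430), linked to nickel tolerance and to cell death under paraquat, lies at chr2:15706285-15707224 on the plus strand. It was at 2.8, 4.04 and 4.08 TPM in wild type, from 17, 24 and 24 reads. In the mutant it was at 1.16, 1.45 and 1.85 TPM, from 7, 9 and 11 reads. Unlike the genes above, ZAT11 was lowest in replicate 1 of both genotypes. The mutant mean was 40.8% of that of wild type.

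ZAT5 was the gene with the least difference among those expressed well. The single-exon gene, AT2G28200, lies at chr2:12023940-12025370 on the plus strand and encodes the longest protein of the 10, with 286 residues. Its levels were 40.08, 39.08 and 37.52 TPM in wild type and 31.87, 34.32 and 34.1 TPM in h3.3ko;HTR5. The replicates lay close together, so the groups were apart although the means, 38.89 ± 1.29 and 33.43 ± 1.36 TPM (SD, n = 3 each), differed by only 1.16-fold.

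ZAT18 (AT3G53600), described as a regulator of drought tolerance, lies at chr3:19875375-19876177 on the plus strand. It was listed at 0, 0.59 and 0.2 TPM in wild type, against 0, 0.19 and 0.39 TPM in the mutant. These values come from 0, 3 and 1 reads and from 0, 1 and 2 reads, at or under the 3 reads taken as the floor. The libraries overlapped, and a difference was not detectable at this depth.

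The AZF genes, named as Arabidopsis zinc finger genes, encode repressors of the same structure. AZF1 and AZF2 are induced by abscisic acid and salt, and repress genes that respond to abscisic acid and auxin. AZF2 (AT3G19580), at chr3:6802903-6804296 on the minus strand, was at 28.95, 19.09 and 17.31 TPM in wild type, against 14.13, 15.98 and 12.5 TPM in the mutant. The groups did not overlap, but the gap between the lowest wild type and the highest mutant library was narrow. The means were 21.78 ± 6.27 and 14.21 ± 1.74 TPM (SD, n = 3 each), a 1.53-fold difference.

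AZF1 (AT5G67450), at chr5:26918765-26920179 on the minus strand, was at 3.93, 4.25 and 4.74 TPM in wild type, against 2.96, 3.64 and 3.25 TPM in the mutant. AZF3 (AT5G43170), at chr5:17330945-17331646 on the minus strand, was at 3.96, 4.51 and 3.41 TPM against 3.31, 1.3 and 2.71 TPM. Both genes were a little lower in every mutant library than in any wild type library, by 1.31-fold for AZF1 and 1.62-fold for AZF3. AZF1 rested on 36, 38 and 42 reads in wild type and on 27, 34 and 29 reads in the mutant. AZF3 rested on 15 to 20 reads in wild type and 6 to 15 reads in the mutant, so its values carry a large counting error. Its lowest wild type library and its highest mutant library had 15 reads each. They were apart in TPM only through the scaling to library totals. Of its 702 bases, 408 overlap QWRF9, a gene on the opposite strand. QWRF9 was at 2.3 ± 0.12 TPM in wild type and 2.73 ± 0.5 TPM in the mutant (SD, n = 3 each; limma adjusted p = 0.523). Whether reads were counted by strand is not stated in the labels, so reads of AZF3 and QWRF9 cannot be told apart.

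**Figure D1:**
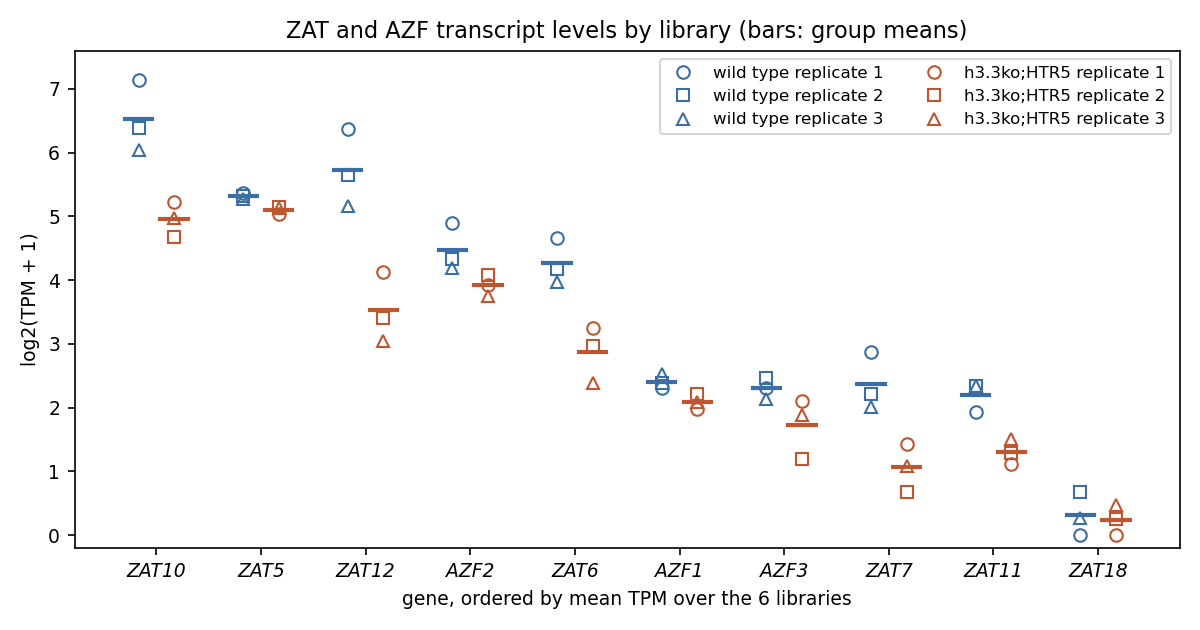
Transcript levels of the 10 ZAT and AZF genes as log2(TPM + 1), with genes on the horizontal axis, 1 symbol per library and a bar at the mean of each group of 3. The h3.3ko;HTR5 symbols lie below all wild type symbols in 9 genes and mix with them in ZAT18.

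Added over the 10 genes, the levels were 331.7, 224.6 and 184.3 TPM in wild type and 116.7, 98.5 and 97.8 TPM in h3.3ko;HTR5. The wild type sum was higher in every library, by 2.37-fold in the mean, and its libraries were further apart. ZAT10 made up 38.8% of the wild type sum and ZAT12 22.3%, against 29.2% and 10.6% in the mutant. ZAT5 made up 15.8% in wild type and 32.0% in the mutant, where it was the most abundant of the 10.

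In wild type the order of the mean levels per length was ZAT10, ZAT12, ZAT5, AZF2, ZAT6, ZAT7, AZF1, AZF3, ZAT11 and ZAT18. The ranges of ZAT10 and ZAT12 over the libraries overlapped, as did those of ZAT12 and ZAT5, and those of AZF2 and ZAT6. Within each wild type library, however, ZAT10 was above ZAT12 and AZF2 was above ZAT6. ZAT7, AZF1, AZF3 and ZAT11, at means of 3.64 to 4.33 TPM, could not be separated by their spread, although AZF1 was above ZAT11 in each library. In the mutant the order was ZAT5, ZAT10, AZF2, ZAT12, ZAT6, AZF1, AZF3, ZAT11, ZAT7 and ZAT18. There ZAT5 overlapped ZAT10, ZAT12 overlapped both AZF2 and ZAT6, and AZF3 overlapped AZF1 and ZAT11. Within each mutant library ZAT12 was still above ZAT6. ZAT7 and ZAT11 overlapped as well. In 9 of the 10 genes every annotated mRNA is a single exon, so their length is the same with or without introns. AZF2 is the exception, with 2 mRNAs, 1 of them in 2 exons.

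Over the 19013 genes with a mean of at least 1 TPM, 20.4% had all mutant libraries below all wild type libraries. The corresponding count was 9 of the 10 zinc finger genes, and nothing is read from it, because the genes were chosen in this comparison. limma on log2(TPM + 1), with Benjamini-Hochberg adjustment and a threshold of 0.05, called 1582 of these genes lower in h3.3ko;HTR5, which is 8.32%, and 703 higher, which is 3.70%. Quantile normalization moved this split to 1171 lower and 1005 higher. Median-of-ratios scaling gave 1258 lower and 941 higher. Without wild type replicate 2 there were 1464 calls in all, and without h3.3ko;HTR5 replicate 3 there were 1289, against 2285 with all libraries. Of the zinc finger genes, 9 passed the filter on low values. ZAT18 did not, and no call is given for any of the 10. The median log2 fold change over all 10, with ZAT18 included, was -0.73, and over all tested genes it was -0.034.

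The spread between replicates differed widely among the 10 genes. The SD of log2(TPM + 1) over the wild type libraries was 0.61 for ZAT12, 0.56 for ZAT10, 0.45 for ZAT7, 0.38 for AZF2 and 0.36 for ZAT6. For ZAT5 it was 0.05 and for AZF1 0.11, against a median of 0.1 over all tested genes. Among genes within 2-fold of its mean level, ZAT12 was at the 99.9th percentile of this SD in wild type and the 99.7th in the mutant. ZAT10 was at the 99.8th and 98.9th percentile, and ZAT6 at the 98.0th and 99.1st. ZAT5, at the 22.2nd and 36.6th percentile, was below the median of its level in both.

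Wild type replicate 1 was the highest wild type library for 6 of the 10 genes, compared with 43.8% of all tested genes. It was the lowest for ZAT11, AZF1 and ZAT18. In the mutant, replicate 1 was the highest library for 5 of the 10 genes, compared with 26.6% of all tested genes. ZAT12, ZAT10, ZAT7 and ZAT6 were 0.39 to 0.64 above their group mean in wild type replicate 1 on the log2 scale and 0.27 to 0.60 above it in mutant replicate 1. ZAT11 and AZF1 were below their group means in both of these libraries. Without wild type replicate 1 the log2 fold change was -1.88 for ZAT12, -1.26 for ZAT10, -1.20 for ZAT6, -1.05 for ZAT7 and -0.34 for AZF2. The groups of these genes had to stay apart, because the library left out was the highest wild type one for each of them. The part of that library in the size of the differences was otherwise not tested.

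**Figure D2:**
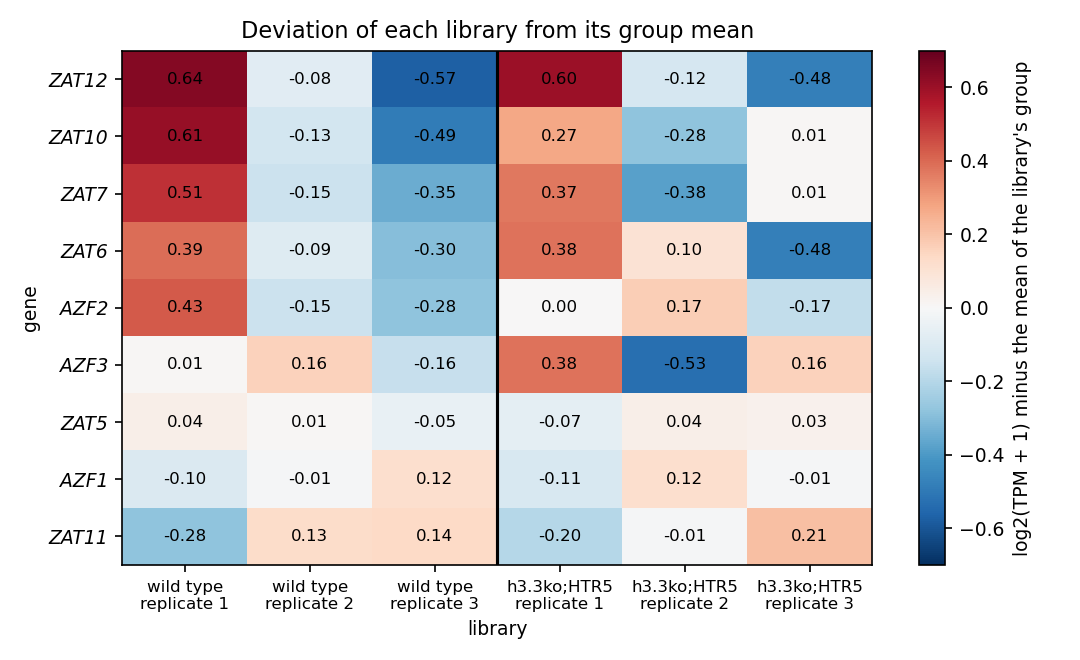
Difference of each library (columns) from the mean of its own group for the 9 genes with a mean of at least 1 TPM (rows), in log2(TPM + 1), with red for higher and blue for lower. ZAT12 was 0.64 above its mean in wild type replicate 1 and 0.60 above it in h3.3ko;HTR5 replicate 1, and ZAT11 was 0.28 and 0.20 below.

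The deviations from the group means grouped the genes further. Over the 6 libraries, Pearson's r between deviations was 0.97 for ZAT7 and ZAT10 and 0.95 for ZAT6 and ZAT12. It was -0.96 for ZAT6 and ZAT11, -0.95 for ZAT7 and AZF1 and -0.94 for ZAT11 and ZAT12. The other pairs lay between these extremes. ZAT11 rested on only 7 to 24 reads per library. The points behind each r share their libraries and number only 6, with 2 group means removed. The values thus describe these libraries and no more.

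The genes whose levels over the 6 libraries were most like the mean of the 9 expressed zinc finger genes were NAC083, RPB5C, AT3G44820, AT1G13360, CML38, ERD10, HSFC1 and NIK2, with Pearson's r of 0.995 to 0.999. NAC083 was at 161.9, 156.1 and 150.7 TPM in wild type and 122.1, 117.8 and 119.2 TPM in the mutant. ERD10, a dehydrin induced by cold and drought, was at 182.3, 164.9 and 157.8 TPM and at 94.95, 92.51 and 86.66 TPM. HSFC1, a heat shock factor, was at 60.68, 52.72 and 49.11 TPM and at 32.07, 32.34 and 29.95 TPM. In all 8 genes wild type replicate 1 was the highest and replicate 3 the lowest wild type library. Nothing is read from this shared order, because the genes were picked for their likeness over these same libraries. With the group means removed, the most similar genes were AT2G24830, AT5G20740, AT1G02990, AT1G53250, RAP2.4, AT5G54940, CXIP2 and AT1G22190, with r of 0.992 to 0.998. No gene was in both sets.

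Calcium-regulated genes, ethylene response factors and other genes that rise within an hour of wounding, touch or chitin formed a list of 28 rapid stress genes. Of the 24 that reached 1 TPM, 14 fell and 1 rose by limma (62.5% changed, against 12.0% of all tested genes), and 9 did not pass. Their median log2 fold change was -0.74. This list was drawn up with earlier results of these libraries known, so it is not independent evidence of a direction. The number changed was 9 without h3.3ko;HTR5 replicate 2 and also 9 without h3.3ko;HTR5 replicate 3.

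CML38, a calmodulin-like calcium sensor, was at 18.48, 10.84 and 8.05 TPM in wild type, against 2.01, 1.09 and 1.48 TPM in the mutant. The groups were far apart, and CML38 fell 8.15-fold (log2 fold change -2.35 ± 0.25 SE, limma adjusted p = 4.35e-04). ERF11, an ethylene response factor that carries an EAR motif like the ZAT proteins, was at 14.09, 9.58 and 6.09 TPM and at 1.67, 0.5 and 1.05 TPM. ERF11 fell 9.23-fold (log2 fold change -2.37 ± 0.28 SE, limma adjusted p = 6.57e-04). Both genes were lower in 3 of 3 mutant libraries than in any wild type library.

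TCH4, a cell wall xyloglucan enzyme induced by touch, was the 1 gene that rose. It was at 295.0, 151.6 and 193.3 TPM in wild type, against 336.2, 347.5 and 346.9 TPM in the mutant. All mutant libraries were higher than all wild type libraries (log2 fold change 0.74 ± 0.18 SE, limma adjusted p = 0.0249). The call was lost when wild type replicate 2 or 3, or any 1 mutant library, was left out, with limma adjusted p of 0.0567 to 0.079, and with limma's robust option (adjusted p = 0.177).

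Wild type replicate 1 was the highest wild type library in 24 of the 24 tested rapid stress genes, compared with 43.8% of all tested genes. In the mutant, replicate 1 was the highest in 9 of the 24. The summed level of the list was 879 to 1480 TPM in wild type and 839 to 888 TPM in the mutant. The part of wild type replicate 1 in the count of changed genes was tested only by leaving it out, which gave 12 changed genes.

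**Figure D3:**
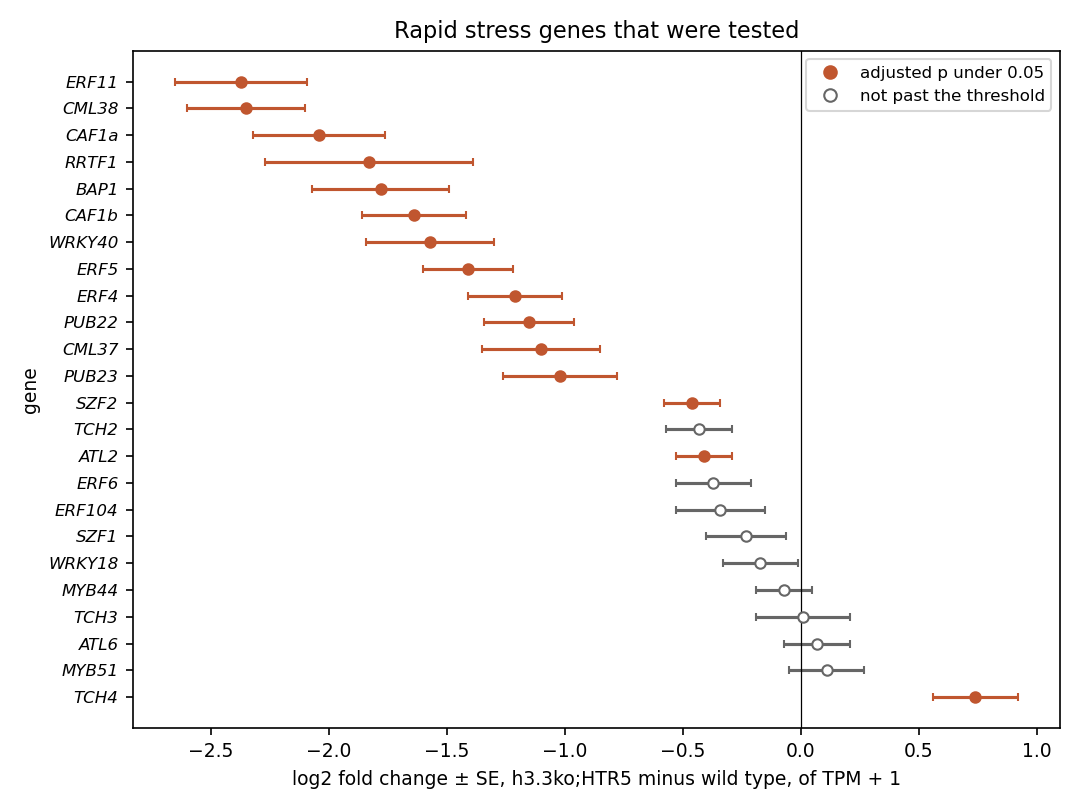
Log2 fold changes, h3.3ko;HTR5 minus wild type, with standard errors for the 24 tested rapid stress genes (rows), filled where limma's adjusted p was under 0.05. ERF11 at -2.37 and CML38 at -2.35 lie furthest to the left, and TCH4 at 0.74 furthest to the right.

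Regulators that are known to switch on ZAT or AZF genes, or to act just upstream of them, formed a list of 14 genes. limma called none of the 14 changed, against 12.0% of all tested genes. At an unadjusted p under 0.05 there were 2, CAMTA3 and WRKY33, and voom on reads called both of them. CAMTA3, a calmodulin-binding transcription factor, was at 15.67 ± 1.29 TPM in wild type and 19.28 ± 1.27 TPM in the mutant (SD, n = 3 each; limma adjusted p = 0.0592). WRKY33, a factor of the wounding and pathogen response, was at 24.44 ± 5.56 and 32.18 ± 3.15 TPM (limma adjusted p = 0.084). Both means were higher in the mutant, unlike those of the zinc finger genes. The libraries of the genotypes overlapped for WRKY33 but not for CAMTA3. These names were chosen after their values were seen. Without wild type replicate 1, WRKY33 and 1 more gene passed. That library was the highest wild type one in 12 of the 14 genes, compared with 43.8% of all tested genes.

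The co-repressors that EAR motifs recruit, TOPLESS, its relatives and partner proteins, were measured as 8 genes. limma called none of the 8, where 12.0% of all tested genes changed. At an unadjusted p under 0.05 there were 2, HDA19 and AT5G27030, and voom called AT5G27030, both named here after their values were seen. Their summed level was 293 to 308 TPM in wild type and 302 to 315 TPM in the mutant, and their log2 fold changes ran from -0.13 to 0.20.

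Of 12 genes reported to act downstream of at least 1 of these zinc finger factors, in either direction, 8 were tested and 4 fell by limma, where 8.32% of all tested genes fell. None rose, and the median log2 fold change was -0.15. Like the rapid stress genes, these were listed with earlier results of these libraries known, so the count is not independent evidence of a direction. RD29A, a cold and drought response gene, was at 31.15, 29.92 and 32.41 TPM in wild type, against 19.39, 20.97 and 19.32 TPM in the mutant. It fell 1.57-fold, with tight replicates in both genotypes (log2 fold change -0.62 ± 0.07 SE, limma adjusted p = 4.73e-04). CBF2, a cold response factor reported to be under repression by ZAT12, was at 43.9, 31.65 and 20.09 TPM and at 12.27, 5.84 and 3.21 TPM. The groups were apart and CBF2 fell 4.49-fold (limma adjusted p = 0.00529), but with limma's robust option the adjusted p was 0.0915.

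The other calls of that list were CBF1, near CBF2 on chromosome 4 and with a like function, and APX1, a cytosolic ascorbate peroxidase. CBF3, which lies between CBF1 and CBF2 and is on the same list, did not reach a mean of 1 TPM and was not tested. CBF1 was at 4.07, 1.95 and 1.05 TPM in wild type, against 0, 0.5 and 0 TPM in the mutant (limma adjusted p = 0.0162). APX1 was at 423.5, 421.3 and 412.6 TPM and at 367.9, 386.3 and 384.4 TPM (limma adjusted p = 0.0344). The difference in APX1 was small, a log2 fold change of -0.14, and its call was lost whichever library was left out. For CBF1, leaving out wild type replicate 2 ended the call (limma adjusted p = 0.054), and so did leaving out h3.3ko;HTR5 replicate 3 (limma adjusted p = 0.0608). Without wild type replicate 1, CBF1 fell below 1 TPM and was not tested. In each of these 3 cases the list had 2 calls.

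Of the oxidative stress genes, which encode antioxidant enzymes and markers of reactive oxygen signalling, 11 of 12 were tested. By limma 5 fell and none rose, where 8.32% of all tested genes fell and 3.70% rose, with a median log2 fold change of -0.34. This list too was drawn up with earlier results of these libraries known, so it is not independent evidence of a direction. OXI1, a kinase activated by reactive oxygen, was at 12.93, 14.4 and 12.65 TPM in wild type, against 6.92, 8.88 and 6.63 TPM in the mutant. It fell 1.78-fold, with the groups apart (limma adjusted p = 0.0024). BCS1, a gene induced by mitochondrial stress, was at 7.92, 7.52 and 5.65 TPM and at 4.32, 3.37 and 3.04 TPM, a fall of 1.96-fold (limma adjusted p = 0.00759). The other calls were CSD1, CSD2 and GSTU25. Leaving out wild type replicate 2 gave 2 calls, as did leaving out h3.3ko;HTR5 replicate 3. Leaving out wild type replicate 3 gave 3, as did leaving out h3.3ko;HTR5 replicate 1.

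Because transcripts of this kind vary with the time of day, 11 circadian clock genes were examined beside them. By limma 1 of the 11 fell (9.09%), which is close to the 8.32% of all tested genes that fell. None rose, and the median log2 fold change was 0.02. The changed gene was PRR9, a morning-phased pseudo-response regulator, at 36.83, 35.96 and 32.54 TPM in wild type, against 27.13, 28.39 and 24.82 TPM in the mutant. It fell 1.31-fold (limma adjusted p = 0.00922). At an unadjusted limma p under 0.05 there were 2 genes, LHY and PRR9, and voom called PRR9 alone. Wild type replicate 1 was the highest wild type library in 9 of the 11 clock genes, compared with 43.8% of all tested genes. Whether the libraries differed in time of day was not tested.

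A further 21 genes encode C2H2 zinc finger proteins of the same or a close group. Of these, 10 were tested, 4 were at 0 in every library, and limma called none changed, where 12.0% of all tested genes changed. At an unadjusted p under 0.05 there were 2, AT2G45120 and AT5G03510, and voom called none. Without h3.3ko;HTR5 replicate 3, AT2G45120 alone passed. The list's median log2 fold change was -0.25, between that of the 10 ZAT and AZF genes and that of all tested genes.

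The most abundant of these was AT5G52010, at 26.02 ± 2.23 TPM in wild type and 28.36 ± 1.32 TPM in the mutant (SD, n = 3 each). AT5G03510 was at 9.37 ± 0.43 and 7.89 ± 0.43 TPM (limma adjusted p = 0.15), and AT2G28710 at 3.67 ± 1.26 and 3.26 ± 0.71 TPM. AT3G46080 lies near ZAT7 on chromosome 3 and on the same strand, with AT3G46086 between them. It was at 2.56, 0.6 and 2.03 TPM in wild type and 0.99, 0.39 and 1.01 TPM in the mutant, from 13, 3 and 10 reads against 5, 2 and 5 reads. The libraries overlapped (limma adjusted p = 0.272), whereas those of ZAT7 did not.

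**Figure D4:**
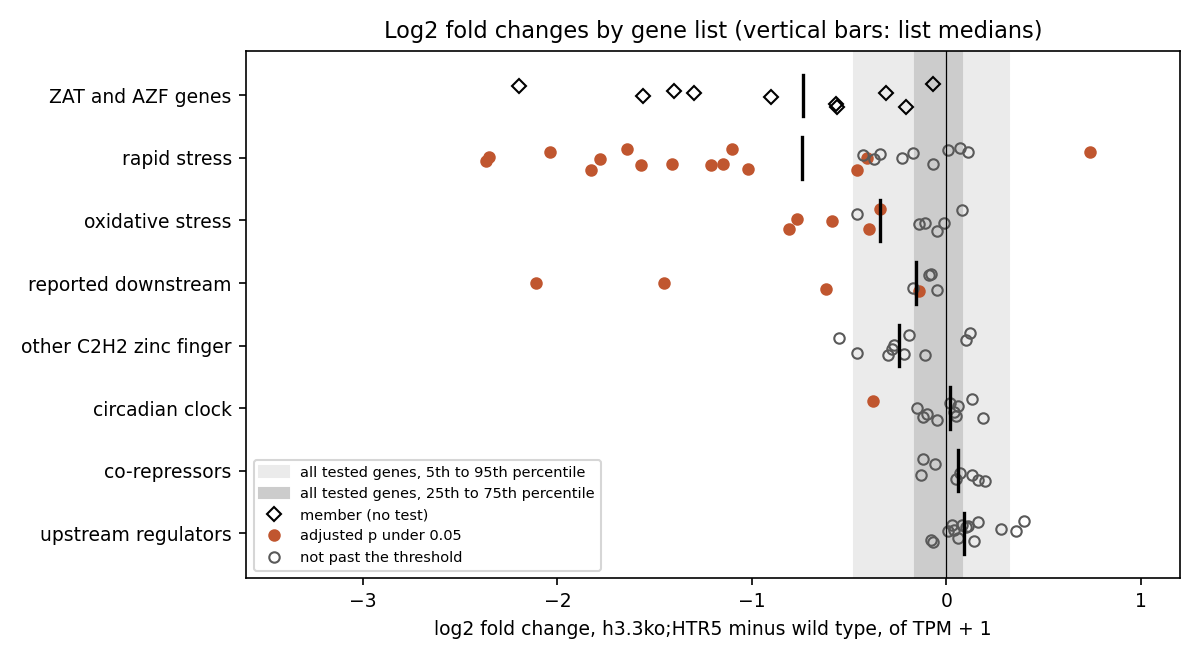
Log2 fold changes, h3.3ko;HTR5 minus wild type, of single genes (points) in 8 lists (rows), with list medians as vertical bars. The grey bands span percentiles of all tested genes, not their full range, so some tested genes lie outside them. The median of the ZAT and AZF genes (diamonds, no test) is -0.73 over all 10 with the untested ZAT18, and the medians of the other lists, -0.74 for the rapid stress genes, are over tested genes alone, while the clock genes, co-repressors and upstream regulators lie around 0.

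The genes beside the zinc finger genes on the chromosome were examined as well. Of the 20 flanking genes 13 were tested, 1 fell, 1 rose and 11 did not pass, where 12.0% of all tested genes changed. CSD2, a chloroplast superoxide dismutase gene 7370 bases from ZAT5, was at 83.68, 60.42 and 51.53 TPM in wild type, against 43.42, 40.11 and 42.66 TPM in the mutant (limma adjusted p = 0.0214). Its call was lost without wild type replicate 2, h3.3ko;HTR5 replicate 2 or h3.3ko;HTR5 replicate 3 (limma adjusted p of 0.0533 to 0.0665), and with limma's robust option (adjusted p = 0.0742). NPY3, beside AZF1, was at 16.2 ± 0.89 and 19.53 ± 0.17 TPM (SD, n = 3 each; limma adjusted p = 0.0444), and this call was lost whichever library was left out (adjusted p of 0.0528 to 0.129). Of the tested neighbours of ZAT6, ZAT7, ZAT10, ZAT11 and ZAT12, none was called changed. AT3G46100, 1274 bases from ZAT7, was at 29.88 ± 0.91 and 30.14 ± 0.51 TPM.

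The sequences before ZAT6, ZAT10 and ZAT11 are shown because they hold the rarest words shared among the 10 promoters, each found in 2 or 6 of 27444 promoters. Not every word they share is that rare. Each line gives the 250 bases before the annotated gene start, 5′ to 3′ on the gene's own strand, read from the RefSeq TAIR10.1 assembly at chr5:1217363-1217612, minus strand, for ZAT6, chr1:9649324-9649573, minus strand, for ZAT10 and chr2:15706035-15706284, plus strand, for ZAT11. Capitals mark the words of at least 10 bases that ZAT6 has in common with ZAT10 or with ZAT11. The rest is in lower case.
ZAT6: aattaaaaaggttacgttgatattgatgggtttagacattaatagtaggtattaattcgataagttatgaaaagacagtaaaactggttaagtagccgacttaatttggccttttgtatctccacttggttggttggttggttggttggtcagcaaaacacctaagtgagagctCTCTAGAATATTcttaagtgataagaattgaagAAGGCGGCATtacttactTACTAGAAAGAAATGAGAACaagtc
ZAT10: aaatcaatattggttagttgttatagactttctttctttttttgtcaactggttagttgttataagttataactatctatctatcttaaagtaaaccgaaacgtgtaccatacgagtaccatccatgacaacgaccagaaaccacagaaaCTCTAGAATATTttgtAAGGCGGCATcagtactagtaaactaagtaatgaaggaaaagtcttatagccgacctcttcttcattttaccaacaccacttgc
ZAT11: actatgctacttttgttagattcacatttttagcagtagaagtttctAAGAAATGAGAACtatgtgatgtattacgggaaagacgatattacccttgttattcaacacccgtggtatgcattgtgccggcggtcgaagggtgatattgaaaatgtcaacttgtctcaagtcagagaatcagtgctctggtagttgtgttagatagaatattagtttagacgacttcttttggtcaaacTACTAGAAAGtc

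ZAT6 and ZAT10 share CTCTAGAATATT, which begins 76 bases before the start of ZAT6 and 100 bases before that of ZAT10. Of the 27444 promoters of the same length, 6 hold this word on either strand (0.0219%). They also share AAGGCGGCAT, at 43 and 84 bases before the start, in the same order and on the same strand, and these are the 2 promoters of 27444 that hold it. ZAT6 and ZAT11 share AAGAAATGAGAAC, at 18 and 203 bases before the start, which no other promoter holds. They also share TACTAGAAAG, at 25 and 12 bases before the start, found in 24 of 27444 promoters (0.0875%). In ZAT6 these last words overlap and are printed as 1 run of capitals. All 45 pairs of the 10 promoters were compared on both strands, and 24 shared words of at least 10 bases were found, of which 16 are made of at least 3 different letters. A shared word is a description of these letters, and neither a binding site nor a cause of the levels was tested.

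The promoters of ZAT7 and ZAT12, the genes with the lowest fractions of wild type left, are shown for some of the short motifs they have in common. Both also hold the W-box core TTGAC, a more frequent motif described below, which is left in lower case. They lie at chr3:16926884-16927133, minus strand, and at chr5:24102564-24102813, plus strand, of the same assembly, and are printed in the same way. Capitals mark the heat shock element GAANNTTC, in which N is any base, and the core CGCG of the calmodulin-binding CAMTA factors.
ZAT7: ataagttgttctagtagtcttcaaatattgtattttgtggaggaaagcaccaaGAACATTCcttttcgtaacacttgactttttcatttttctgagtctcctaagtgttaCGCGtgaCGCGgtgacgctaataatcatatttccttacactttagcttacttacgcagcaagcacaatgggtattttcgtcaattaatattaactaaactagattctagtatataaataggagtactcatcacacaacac
ZAT12: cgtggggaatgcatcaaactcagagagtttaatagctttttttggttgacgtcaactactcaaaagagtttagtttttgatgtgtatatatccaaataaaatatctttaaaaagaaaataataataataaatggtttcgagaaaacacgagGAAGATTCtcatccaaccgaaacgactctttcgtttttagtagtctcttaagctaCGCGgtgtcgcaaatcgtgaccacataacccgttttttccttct

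Both promoters hold 1 heat shock element upstream of the CGCG core, which occurs at 140 and 133 bases before the start of ZAT7 and at 44 bases before that of ZAT12. CGCG was in 2 of the 10 promoters and in 10.1% of all 27444. The longer rapid stress response element CGCGTT, which contains CGCG, was in none of the 10 windows and in 2.59% of all. The heat shock element was in 4 of the 10 (ZAT6, ZAT7, ZAT11 and ZAT12) and in 9.55% of all. In ZAT6 it overlaps the word shared with ZAT10.

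The core of the W-box, TTGAC, to which WRKY factors bind, was in 8 of the 10 promoters (all but ZAT6 and AZF3) and in 44.9% of all. The cold and drought element CCGAC was in 4 of the 10 (ZAT6, ZAT10, ZAT18 and AZF2) and in 12.0% of all. In AZF2 it shares its first base with a W-box core. The abscisic acid element ACGTG was in ZAT10 and ZAT18 and in 22.9% of all. Both strands were searched. Among the promoters of the 28 rapid stress genes, CGCGTT was in 1, CGCG in 3, TTGAC in 17, ACGTG in 12, CCGAC in 2 and GAANNTTC in 4. A match is a description of the window, and the lack of one says only that these letters are not there.

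**Figure D5:**
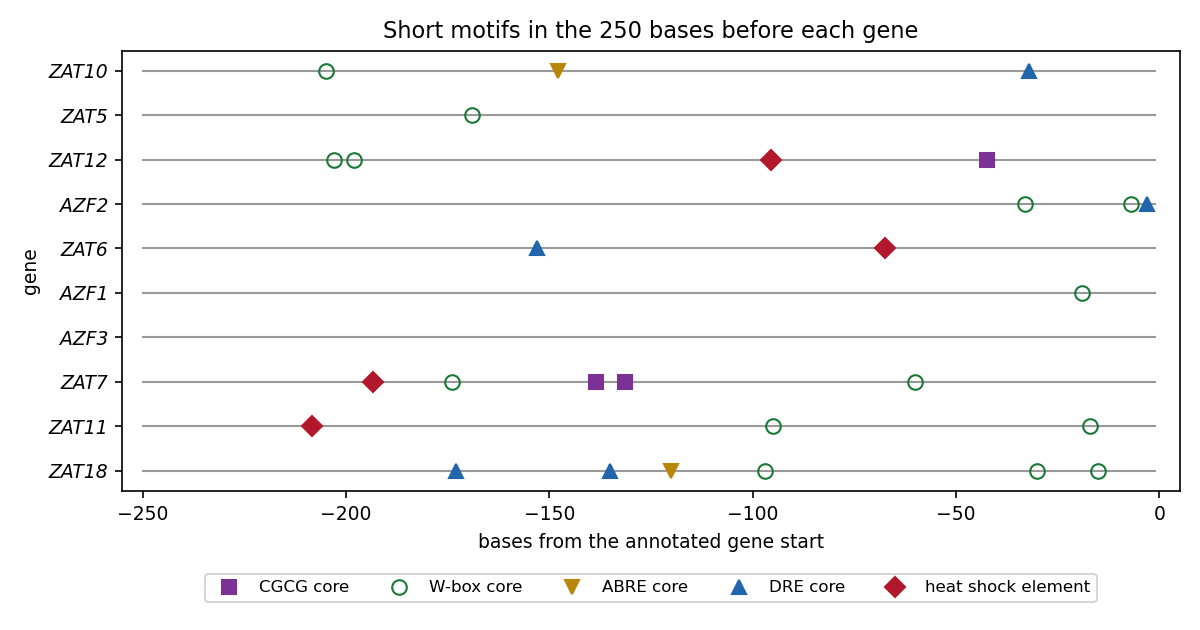
Positions of short motifs in the 250 bases before each of the 10 genes (rows), with the distance from the annotated gene start in bases on the horizontal axis. AZF3 has none of them, and ZAT7 and ZAT12 are the rows with the CGCG core.

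Near-identical copies, which would share reads, were looked for. No stretch of 50 bases in any of the 10 genes occurs elsewhere in the nuclear genome, and the longest exact match is the 39 bases shared by AZF1 and AZF2. For ZAT7 the longest match was 26 bases.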

How the data were processed

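Seedling RNA from 3 wild type and 3 h3.3ko;HTR5 samples was sequenced, and TPM values of 27655 genes were deposited by the authors in 1 table, with a sum of 1000000 in each library. According to the submitters' processing notes, HISAT2 2.1.10, fastp 0.20.1 and DESeq2 1.26.0 were used, with the build TAIR10. Not given in the sources used here are the annotation release, the counting tool and whether it used strand. With gene spans of the TAIR10.1 annotation as lengths, 22980 of 22985 expressed genes (99.98%) gave whole reads from the deposited TPM within 0.02 reads, and these were used for the reads printed and for voom. Introns therefore lower a gene's TPM.

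Samples were grouped by genotype. Genes with a mean of at least 1 TPM (19013) were tested on log2(TPM + 1) with limma 3.58.1 (R 4.3.3), with a trend in eBayes, two-sided, Benjamini-Hochberg adjustment over all tested genes, a threshold of 0.05 and no replicate block. The test was run on simulated data first. No replicate pair agreed within counting noise, with chi-square values of 2.13 to 3.95 per degree of freedom. Identifiers were matched to the RefSeq annotation for 27445 genes (99.2%). The floor of 3 reads covers counting error only, whereas the printed SDs and SEs include the spread among libraries.

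The 10 genes and all lists were chosen with earlier results of these data known. Named from each list are up to 2 called genes per direction with the lowest adjusted p. For the further C2H2 genes, the 3 highest by mean TPM and any near a ZAT or AZF gene are named too. The 8 genes most like the ZAT and AZF mean are also named, on levels and on deviations. Other genes were named after their values were seen. The alternatives were another pseudocount (0.1), no filter, quantile normalization, median-of-ratios scaling, voom, a robust fit, a replicate block and leaving out each library.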

Additional observations from a re-analysis of the deposited data

How the results depend on the processing

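With 3 libraries per group and few reads for ZAT7, ZAT11, ZAT18 and AZF3, small differences could not be resolved. Over the whole table, 1851 to 2899 genes were called under the settings that kept all libraries, and 1289 to 2068 with each library left out in turn. The count of zinc finger genes below all wild type libraries was 8 or 9 in the settings that kept all libraries. With a library left out it was 9. It could not be lower there, since leaving out a library cannot end such a separation. Their median log2 fold change was -0.83 to -0.73 with a library left out, -1.0 with a pseudocount of 0.1 and -1.24 with voom, which left out ZAT18 (9 genes), so the last is not over the same genes. The log2 difference of ZAT18, which rests on 0 to 3 reads per library, ran from -0.22 to 0.11 with a library left out. It was -0.07 with all libraries and turned to 0.11 without wild type replicate 2 and to 0.05 without h3.3ko;HTR5 replicate 1, and the cause was not tested.

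Leaving out each library gave 9 to 14 changed rapid stress genes, 2 to 3 downstream genes, 2 to 5 oxidative stress genes, 0 to 2 upstream regulators, 0 to 1 further C2H2 genes, and in every case 0 co-repressors and 1 clock gene. Oxidative stress genes numbered 3 with no filter and 3 with quantile normalization. Upstream regulators numbered 1 with quantile normalization, 2 with median-of-ratios scaling and 2 with voom. Voom called 1 co-repressor. The causes were not tested.

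Over all tested genes, deviations of same-numbered libraries correlated at -0.04, 0.02 and -0.01, so no pairing by replicate number was seen across the table. Such values cannot decide it for single genes. In replicate 1 of wild type and of the mutant, ZAT12 deviated by 0.64 and 0.6, and ZAT6 by 0.39 and 0.38. ZAT5 was near its group means there, at 0.04 and -0.07, and AZF2 deviated in wild type alone, by 0.43. ZAT11 went the other way in both, at -0.28 and -0.2, as did AZF1, at -0.1 and -0.11. Whether the zinc finger genes share an effect of replicate number was not tested. With the replicate block there were 1851 calls, and no count over a list moved by over 1.5 times.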
